A study of Mus musculus with 6 samples.

Results

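The genes described here are 42 adhesion molecules of synapses and axons that fall into 12 families, taken by symbol from a table of 56805 genes. They are the neurexins Nrxn2 and Nrxn3, the neuroligins, calsyntenins, latrophilins (Adgrl) and teneurins (Tenm), and the leucine-rich repeat families Lrrtm, Flrt, Slitrk, Lrrn, Lrrc4, Lingo and Lrfn. All 42 were found, and all 42 passed the filter on low counts. The counts come from rRNA-depleted total RNA of cells labelled motor neurons from mouse embryos at e12.5, compared between the cervical and the thoracic spinal cord with 3 libraries per region. Per the labels, both groups have the genotype "control" and received no treatment, so no allele or agent separates the groups beside the region. The design text calls the replicates biological. The sources used here do not name the strain, the sorting or dissection of the cells, or the animals behind a library, so each p-value reflects the scatter among these 6 libraries only.

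Synaptic adhesion molecules are membrane proteins that bind partners on a facing cell and recruit scaffold proteins inside their own. Neurexins sit mainly on axons and bind neuroligins and Lrrtm proteins, while latrophilins bind teneurins and Flrt proteins, and Slitrk and some Lrrc4 and Lrfn proteins bind receptor tyrosine phosphatases. In the embryonic spinal cord several of these families act in neuron migration and axon growth before synapses form. At this stage motor axons have left the cord, and most central synapses are yet to be made.

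Library totals ranged from 32103071 to 53186131 counts, the highest being thoracic replicate 1, and the 42 genes held 0.620 to 0.666% of the counts of each library. Motor neuron genes were present in all 6 libraries, with 9 of 9 listed markers tested and a summed level of 357 to 723 CPM in cervical and 447 to 669 CPM in thoracic libraries (CPM, counts scaled to library size). The summed level was lowest in cervical replicate 2. Interneuron markers (15 of 15 tested) summed to 1487 to 1635 CPM in cervical and 1306 to 1348 CPM in thoracic libraries, above the motor neuron sum in every library. Neural progenitor markers (8 of 8 tested) summed to 651 to 852 CPM in cervical and 754 to 986 CPM in thoracic libraries. Floor plate markers (5 of 5) summed to 412 to 857 CPM in cervical and 797 to 1123 CPM in thoracic libraries, and mesenchyme markers (9 of 10 tested) to 26.4 to 230.5 CPM in cervical and 144 to 232 CPM in thoracic libraries. Spon1 (180 to 565 CPM over all libraries) and Ntn1 (223 to 504 CPM) held most of the floor plate sum. Shh lay at 8.02 to 41.5 CPM, Foxa2 at 1.15 to 12.1 CPM and Ferd3l at 0.155 to 5.24 CPM. Schwann and glial markers lay between 188 and 259.8 CPM, and the lists for sensory ganglion, endothelium, blood, macrophages and muscle between 1.72 and 30.0 CPM in every library. No marker of the 11 lists that is in the table was at 0 in all libraries. In such bulk samples, fewer cells of a type and less RNA per cell cannot be told apart.

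Nearly all of these adhesion genes were already expressed at this stage, over a 177-fold range of levels. Levels between genes were compared as counts scaled to exonic length and library size (RPKM), as mean ± SD over the 6 libraries. The highest were Clstn1, which encodes a kinesin cargo adaptor and adhesion protein, at 101 ± 3.64 RPKM, and Nlgn2, the neuroligin of inhibitory synapses, at 100.3 ± 4.26 RPKM. The next were Lrrc4b at 83.7 ± 5.59 RPKM, the latrophilin gene Adgrl1 at 65.3 ± 1.55 RPKM and Lrrn1 at 45.8 ± 3.07 RPKM. Above 10 RPKM stood 26 genes, between 1 and 10 RPKM 15 genes, and Lingo3 alone lay below 1 at 0.572 ± 0.131 RPKM. The median of the 42 was 13.5 RPKM, beside 2.71 RPKM over all tested genes.

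**Figure D1:**
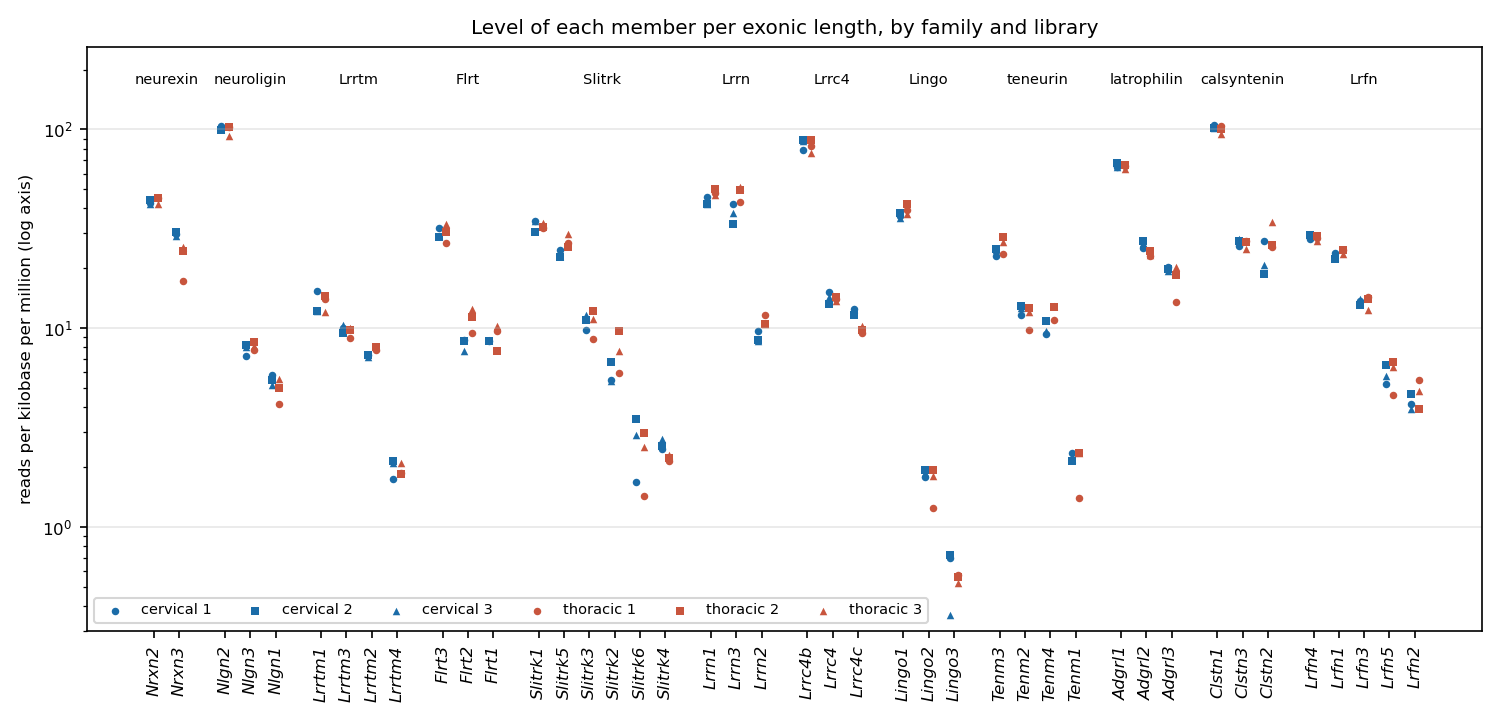
Level of each of the 42 genes in RPKM on a log axis, grouped by family and ordered by level within each, with 1 point per library (blue cervical, red thoracic; circle, square and triangle for replicates 1, 2 and 3). Most families have 1 clearly highest member, such as Nlgn2, Lrrc4b, Lingo1 and Clstn1, and the points of both regions lie close together compared with the distance between genes.

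In 6 of the 12 families a single gene held over 60% of the family's summed RPKM. Lingo1, whose product works with the Nogo receptor to limit axon growth, held 94.3%, Nlgn2 88.4%, Lrrc4b 76.9%, Clstn1 66.0%, Nrxn2 62.6% of the pair measured here, and Flrt3 61.7%. Within the Slitrk family the order was Slitrk1 (33.0 ± 1.63 RPKM), Slitrk5 (25.5 ± 2.61), Slitrk3 (10.8 ± 1.23), Slitrk2 (6.83 ± 1.65), Slitrk6 (2.49 ± 0.796) and Slitrk4 (2.41 ± 0.235). Slitrk3 and Slitrk2, and Slitrk6 and Slitrk4, overlapped over the 6 libraries. Likewise Lrrn1 and Lrrn3 overlapped (45.8 ± 3.07 and 43.0 ± 6.83 RPKM), as did Tenm2 and Tenm4 (11.9 ± 1.14 and 11.1 ± 1.49) below Tenm3 (25.4 ± 2.16) and above Tenm1 (2.13 ± 0.373). Clstn3 and Clstn2, Flrt2 and Flrt1, and Lrfn5 and Lrfn2 overlapped as well, and no other neighbours within a family did. The Lrrtm genes ranked Lrrtm1 (13.4 ± 1.40 RPKM), Lrrtm3 (9.76 ± 0.519), Lrrtm2 (7.61 ± 0.402) and Lrrtm4 (1.96 ± 0.165). The Lrfn genes ranked Lrfn4 (28.6 ± 0.813 RPKM), Lrfn1 (23.6 ± 0.988), Lrfn3 (13.6 ± 0.736), Lrfn5 (5.88 ± 0.832) and Lrfn2 (4.49 ± 0.605).

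Between the cervical and thoracic libraries, which also held interneuron markers, differences in these genes were small. None of the 42 passed edgeR's quasi-likelihood test at a Benjamini-Hochberg adjusted p below 0.05, in a comparison that called 0.542% of the 21972 genes tested (0.191% higher in cervical, 0.35% in thoracic libraries). At an unadjusted p below 0.05 there were 12 of 42, against 8.47% of all tested genes. Of the 12, 4 were higher in cervical libraries (3.27% of all genes) and 8 in thoracic ones (5.19% of all genes). Limma-voom called none and DESeq2 called 5 (Flrt2, Lrrc4c, Lrrn3, Nrxn3 and Tenm4), where it called 1.86% of all genes. Fold changes are log2 of cervical over thoracic, so negative values are higher in thoracic libraries. They lay above 0 for 23 genes and below 0 for 19, with a median of 0.01, as over all tested genes. The largest size was 0.41. The median size without regard to sign was 0.11 for the 42 genes and 0.13 for all genes tested. Their median standard errors were 0.08 and 0.18, so the size over all genes holds more noise and the 2 sizes are not directly comparable.

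The precision was sufficient to bound most of these differences. The 95% interval of the log2 fold change, taken gene by gene with no adjustment, lay within ±0.5 (1.41-fold) for 33 of 42 genes and within ±0.25 (1.19-fold) for 15. It lay within ±1 (2-fold) for all 42. The narrowest intervals were those of Adgrl1 (-0.11 to 0.14), Lrfn4 (-0.09 to 0.16) and Lrrn1 (-0.28 to -0.02), and the widest those of the low genes Slitrk6 (-0.40 to 0.87) and Lingo3 (-0.52 to 0.74). Lingo3 had 41 to 109 counts per library, the fewest of the 42.

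Replicate numbers were taken to pair the regions, since same-numbered libraries deviated together, though weakly. With the replicate number as a block, 4 of 42 genes were called, beside 1.97% of all genes. They were Nrxn3, higher in cervical libraries (0.573% of all genes were called in that direction), and Flrt2, Slitrk2 and Tenm4, higher in thoracic libraries (1.39% of all genes). Leaving out both libraries of replicate 2 left none of these calls, with 184 calls among 22146 genes tested. Leaving out replicate 3 left Nrxn3, with 283 calls among 22288 genes. Leaving out replicate 1 gave 7 calls, all 4 among them, with 798 calls among 22237 genes. The 3 values of one region lay wholly above those of the other for 11 genes, where 13.7% of all genes did so. Of these, 4 were higher in cervical libraries (6.25% of all genes) and 7 in thoracic ones (7.5% of all genes). In all 3 replicate pairs the cervical library was higher for 8 genes (15% of all genes) and the thoracic one for 13 (16.4% of all genes).

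**Figure D2:**
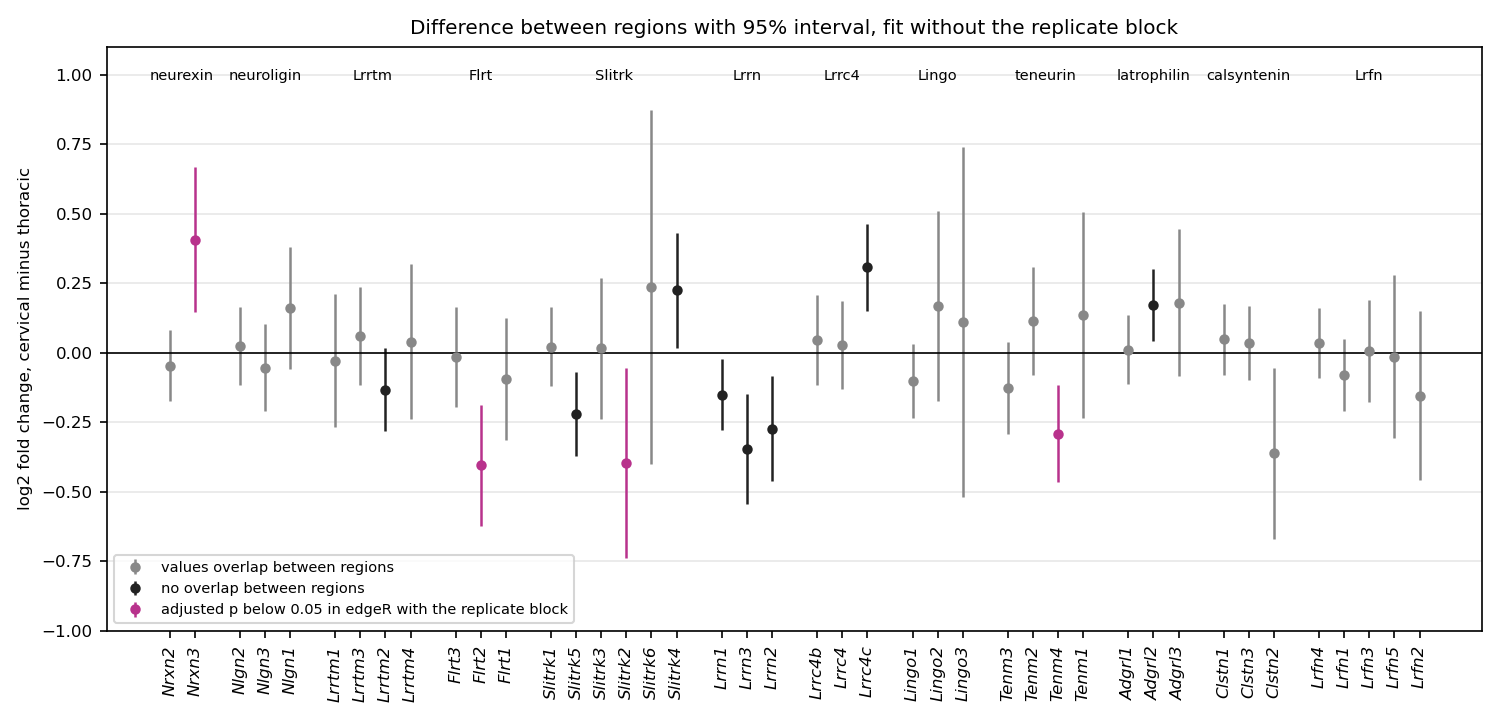
Log2 fold change of each gene, cervical minus thoracic, with its 95% interval, by family. All intervals stay within ±1, the 3 Lrrn genes lie below 0 together, and the 4 genes in magenta (Nrxn3, Flrt2, Slitrk2, Tenm4) were those edgeR called with the replicate block and not without it.

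No binding data were used here. For context, the sequences before the annotated starts of the 4 genes called with the block are shown. That of Lrrc4c, which had the smallest p of the 42 without the block, is shown too. Slitrk2 is included for its blocked call, though its regions overlapped. All are the 250 bases upstream of a RefSeq start in GRCm38.p6, a build other than that of the counts. For a gene with several starts the window with the most CG dinucleotides is shown. This was the last of 3 starts along the gene for Nrxn3 and the last of 2 for Slitrk2 and Tenm4, not the first. Of the 42 genes, 34 matched, with 46 windows. Capitals mark TAAT, a core bound by many homeodomain proteins including Hox proteins, and CANNTG, the E-box core of basic helix-loop-helix proteins, each on either strand.
Nrxn3, chr12:89812233-89812482, plus strand: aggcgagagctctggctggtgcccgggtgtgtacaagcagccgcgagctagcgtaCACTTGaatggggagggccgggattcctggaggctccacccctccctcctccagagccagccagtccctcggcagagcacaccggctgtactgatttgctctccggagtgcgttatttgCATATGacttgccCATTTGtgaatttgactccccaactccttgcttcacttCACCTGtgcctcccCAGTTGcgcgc
Lrrc4c, chr2:96317919-96318168, plus strand: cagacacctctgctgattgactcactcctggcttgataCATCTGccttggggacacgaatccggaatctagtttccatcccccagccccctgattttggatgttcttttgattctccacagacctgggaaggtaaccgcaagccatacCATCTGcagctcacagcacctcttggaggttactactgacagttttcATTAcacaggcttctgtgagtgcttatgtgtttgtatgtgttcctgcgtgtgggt
Flrt2, chr12:95691976-95692225, plus strand: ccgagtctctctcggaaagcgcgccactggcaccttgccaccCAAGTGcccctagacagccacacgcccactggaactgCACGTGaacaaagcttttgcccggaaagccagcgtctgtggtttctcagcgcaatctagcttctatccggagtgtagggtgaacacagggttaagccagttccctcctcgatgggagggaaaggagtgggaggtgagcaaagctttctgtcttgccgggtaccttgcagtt
Slitrk2, chrX:66652909-66653158, plus strand: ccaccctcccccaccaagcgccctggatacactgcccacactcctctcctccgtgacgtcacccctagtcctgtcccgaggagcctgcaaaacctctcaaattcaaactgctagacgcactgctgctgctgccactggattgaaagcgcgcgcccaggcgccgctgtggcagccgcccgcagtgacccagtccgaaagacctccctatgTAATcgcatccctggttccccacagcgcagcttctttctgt
Tenm4, chr7:96211421-96211670, plus strand: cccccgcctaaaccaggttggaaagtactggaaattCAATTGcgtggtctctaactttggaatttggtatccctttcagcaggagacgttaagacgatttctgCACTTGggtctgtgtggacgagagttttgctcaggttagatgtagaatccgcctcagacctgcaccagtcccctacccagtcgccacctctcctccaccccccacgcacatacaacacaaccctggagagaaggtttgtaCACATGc

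TAAT occurred in 22 of the 46 windows (47.8%) and in 54.9% of 32851 windows of all genes. CANNTG occurred in 32 of 46 (69.6%) and in 66.2% of all. Of the windows shown, those of Slitrk2 and Lrrc4c held 1 TAAT each, and those of Nrxn3, Flrt2 and Tenm4 none. The windows of these genes that are not shown held 4 TAAT for Tenm4, 2 and 1 for Nrxn3, and none for Slitrk2. Some annotated starts may belong to partial gene models, so the Nrxn3 window with 2 TAAT may lie before an internal exon. The longer letters TGATTNAT, bound by Hox proteins with Pbx cofactors, occurred in 3 of 46 windows and in 2.82% of all, among them the other window of Slitrk2. A match of letters describes the window and shows no binding.

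Among the presynaptic genes, Nrxn3 had lower values in thoracic libraries, and the lowest in thoracic replicate 1. Nrxn3, a neurexin with a long gene and many splice forms, stood at 376, 385 and 369.6 CPM in cervical replicates 1, 2 and 3 and 219, 309.6 and 323 CPM in the thoracic replicates. The regions did not overlap, and the cervical values were close together (377 ± 7.58 against 284 ± 56.4 CPM, mean ± SD, n = 3 here and below). The difference was 1.33-fold (log2 fold change 0.41 ± 0.12 SE, adjusted p from edgeR 0.254 and blocked 0.0245). Without thoracic replicate 1 it came to 0.25 on the log2 scale (adjusted p from edgeR 0.232). Nrxn2, the more abundant of the pair, stood at 586, 609 and 581 CPM (cervical) and 624, 626 and 584 CPM (thoracic). Its regions overlapped, and the interval of its log2 fold change was -0.18 to 0.08. Nrxn3 lies at chr12:88689646-90301709 (mm39) and spans 1612 kb.

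The latrophilins, adhesion G protein-coupled receptors that bind teneurins and Flrt proteins, had log2 fold changes of 0.01 for Adgrl1, 0.17 for Adgrl2 and 0.18 for Adgrl3. Adgrl2 stood at 359, 391 and 380.1 CPM (cervical) and 326, 347 and 330.0 CPM (thoracic). Its regions did not overlap, with every cervical library above every thoracic one, but it did not pass (log2 fold change 0.17 ± 0.06 SE, adjusted p from edgeR 0.38 and blocked 0.175). Adgrl3 stood at 360.2, 351 and 344 CPM (cervical) and 240.2, 329 and 362 CPM (thoracic), and thoracic replicate 1 lay far below the other 5 libraries (log2 fold change 0.18 ± 0.12 SE, adjusted p from edgeR 0.797). Adgrl1 overlapped between regions, at 563 ± 13.7 against 559 ± 15.4 CPM.

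Their teneurin and Flrt ligands held 2 of the 4 genes called with the block, and both were higher in thoracic libraries. Tenm4, a teneurin at chr7:95820453-96560300 (mm39), stood at 197, 229 and 204 CPM in cervical replicates 1, 2 and 3 and 231, 268 and 272 CPM in the thoracic replicates. The lowest thoracic library lay just above the highest cervical one (210.1 ± 16.9 against 257 ± 22.6 CPM, log2 fold change -0.29 ± 0.08 SE, adjusted p from edgeR 0.208 and blocked 0.0256). Flrt2, also a guidance ligand for Unc5 receptors, stood at 67.5, 66.7 and 59.3 CPM in cervical replicates 1, 2 and 3 and 72.9, 87.5 and 96.0 CPM in the thoracic replicates. Thoracic replicate 1 was the lowest of its region, and the regions did not overlap (64.5 ± 4.49 against 85.5 ± 11.7 CPM, log2 fold change -0.40 ± 0.10 SE, adjusted p from edgeR 0.143 and blocked 0.0471). Without thoracic replicate 1, Flrt2 was called without the block too, at -0.51 on the log2 scale (adjusted p from edgeR 0.0373). Flrt2 lies at chr12:95659000-95751989 (mm39).

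The other teneurins and Flrt genes overlapped between regions. Tenm3 stood at 249 ± 10.8 against 272 ± 26.7 CPM (log2 fold change -0.13) and Tenm2 at 142 ± 7.89 against 132 ± 16.8 CPM (0.11). Tenm1, on the X chromosome, stood at 41.6, 38.0 and 38.8 CPM (cervical) and 24.7, 41.5 and 41.9 CPM (thoracic), with thoracic replicate 1 far below the rest. Flrt3 stood at 145 ± 8.57 against 147 ± 16.2 CPM (log2 fold change -0.01) and Flrt1 at 50.6 ± 0.317 against 53.9 ± 7.81 CPM (-0.09).

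**Figure D3:**
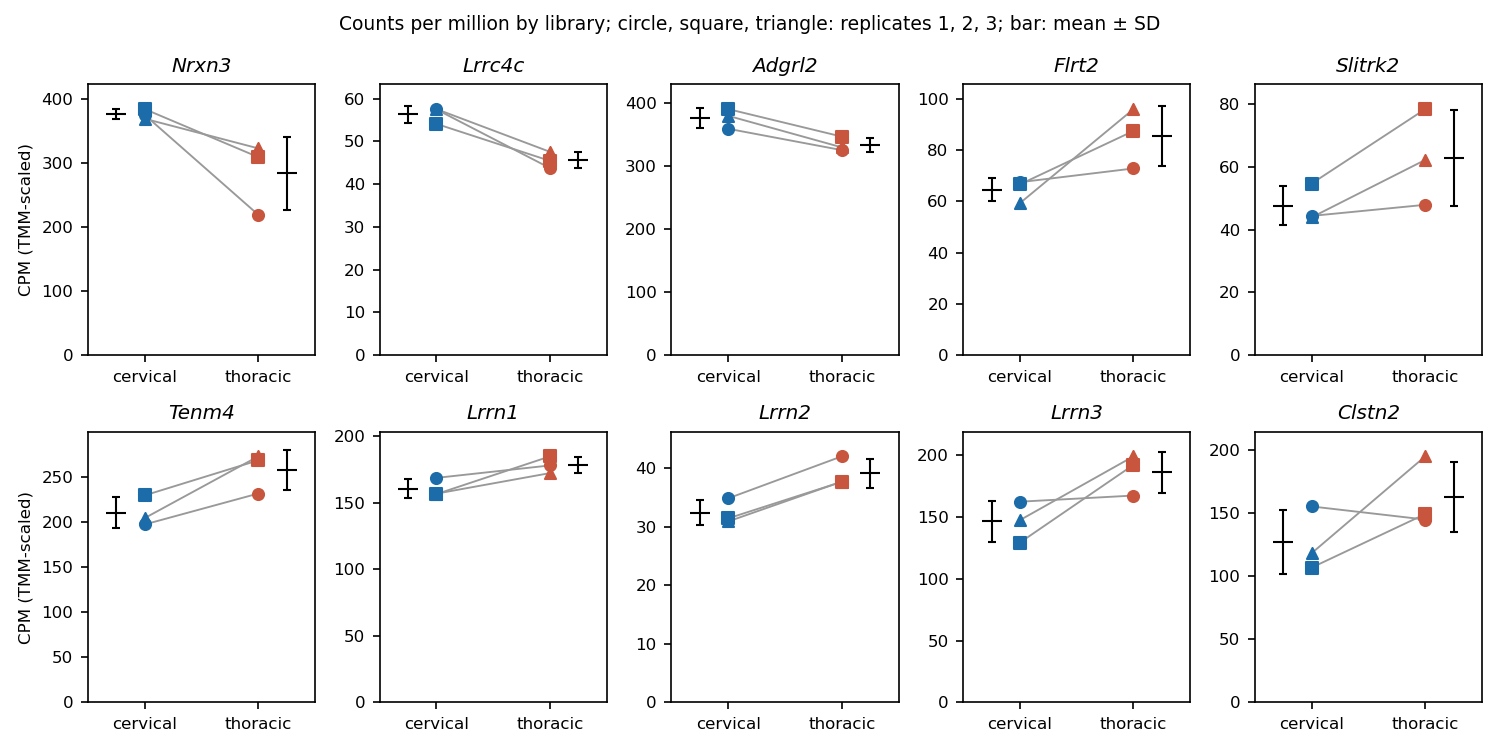
CPM of 10 genes in each library, with lines joining libraries of the same replicate number and the mean ± SD of 3 libraries beside each region. Nrxn3, Lrrc4c and Adgrl2 slope down toward thoracic in all 3 pairs, Flrt2, Slitrk2, Tenm4 and the 3 Lrrn genes slope up in all 3, and Clstn2 crosses.

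Of the postsynaptic neurexin partners, none was called in either edgeR fit or by DESeq2. The neuroligins had log2 fold changes of 0.16 for Nlgn1, 0.02 for Nlgn2 and -0.05 for Nlgn3. Nlgn1, the neuroligin of excitatory synapses, stood at 78.1, 73.6 and 69.1 CPM (cervical) and 55.9, 67.3 and 74.6 CPM (thoracic) and overlapped between regions. Nlgn3 shares 3823 of its 9271 exonic bases with Gm21986 on the same strand, so its level is uncertain to that extent. Among Lrrtm genes Lrrtm2 had a small difference with little spread, at 44.2, 43.9 and 43.0 CPM (cervical) and 46.9, 48.6 and 48.4 CPM (thoracic). Every thoracic value lay above every cervical one (log2 fold change -0.13 ± 0.07 SE, adjusted p from edgeR 0.675 and blocked 0.608), and Lrrtm2 shares 95 exonic bases with Ctnna1 on the opposite strand. Lrrtm1, Lrrtm3 and Lrrtm4 had log2 fold changes of -0.03, 0.06 and 0.04, with overlap.

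Among the calsyntenins, Clstn2 varied most between libraries. It stood at 155, 107 and 118 CPM in cervical replicates 1, 2 and 3 and 145, 149 and 195 CPM in the thoracic replicates, and cervical replicate 1 was as high as the thoracic libraries 1 and 2. The regions overlapped (127 ± 25.3 against 163 ± 27.8 CPM, log2 fold change -0.36 ± 0.14 SE, adjusted p from edgeR 0.476 and blocked 0.161). The motor neuron markers, whose part in this was not tested, summed to 723, 357 and 501 CPM in cervical replicates 1, 2 and 3 and to 669, 447 and 616 CPM in the thoracic ones. Clstn2 and those markers had the same order among the cervical libraries but not among the thoracic ones. Clstn1 and Clstn3 stood at 481 ± 8.02 against 465 ± 21.7 CPM and 159 ± 5.89 against 156 ± 7.98 CPM.

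The 3 Lrrn genes, which encode single-pass membrane proteins with leucine-rich repeats, were each higher in every thoracic library than in any cervical library, though edgeR called none of them with or without the block. DESeq2 called Lrrn3 (adjusted p 0.0223). Lrrn3 stood at 162, 129 and 148 CPM in cervical replicates 1, 2 and 3 and 167, 192 and 199 CPM in the thoracic replicates (log2 fold change -0.35 ± 0.09 SE, adjusted p from edgeR 0.179 and blocked 0.0564). The gap was narrow, since cervical replicate 1 nearly reached thoracic replicate 1. Lrrn2 stood at 34.9, 31.4 and 30.9 CPM (cervical) and 42.04, 37.7 and 37.7 CPM (thoracic) (log2 fold change -0.27 ± 0.09 SE, adjusted p from edgeR 0.323 and blocked 0.118). Lrrn1 stood at 169, 156 and 157 CPM (cervical) and 178, 185 and 172 CPM (thoracic) (log2 fold change -0.15 ± 0.06 SE, adjusted p from edgeR 0.47 and blocked 0.348). The family was the only one of the 12 in which all members were free of overlap in the same direction, an observation made after the values were seen. In the same libraries the summed progenitor markers stood at 651, 852 and 701 CPM (cervical) and 754, 986 and 809 CPM (thoracic), and the summed floor plate markers at 412, 857 and 763 CPM (cervical) and 797, 1023 and 1123 CPM (thoracic). Of those lists, 2 of 8 progenitor genes and 4 of 5 floor plate genes passed the blocked test with higher thoracic values, and none did without the block. Isl1 and Slc18a3 of the motor neuron list and Col1a1 and Col3a1 of the mesenchyme list also passed only the blocked one of the 2 edgeR tests, in the same direction. Interneuron markers differed already in the edgeR test without the block, with Sim1, Lmx1b and Gata3 higher in thoracic libraries (log2 fold changes -2.25, -1.08 and -0.85). Pax2 and Slc6a5 (0.33 and 0.45), and Foxd3 of the Schwann and glial list (0.38), were higher in cervical libraries. Their part in the Nrxn3, Lrrc4c, Lrrn, Flrt2, Slitrk2 and Tenm4 differences was not tested.

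Slitrk genes, which encode postsynaptic partners of receptor tyrosine phosphatases, went in both directions. Slitrk2, on the X chromosome at chrX:65692924-65704999 (mm39), stood at 44.3, 54.6 and 43.9 CPM in cervical replicates 1, 2 and 3 and 47.9, 78.3 and 62.2 CPM in the thoracic replicates. The regions overlapped, but within each replicate pair the thoracic library was higher (log2 fold change -0.40 ± 0.15 SE, adjusted p from edgeR 0.484 and blocked 0.0437). Slitrk5 stood at 131, 121 and 121 CPM (cervical) and 140.3, 135 and 157 CPM (thoracic), with no overlap (log2 fold change -0.22 ± 0.07 SE, adjusted p from edgeR 0.315 and blocked 0.165). Slitrk4, also on the X chromosome, stood at 21.4, 22.4 and 24.3 CPM (cervical) and 18.8, 19.3 and 20.2 CPM (thoracic). It was the Slitrk gene whose cervical values all lay above the thoracic ones (log2 fold change 0.22 ± 0.09 SE, adjusted p from edgeR 0.53 and blocked 0.408). Slitrk6 followed the replicate number more than the region, at 7.12, 14.8 and 12.3 CPM (cervical) and 6.02, 12.53 and 10.7 CPM (thoracic), and was low in both replicate 1 libraries. Slitrk1 and Slitrk3 had log2 fold changes of 0.02 and 0.02.

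Of the Lrrc4 genes, which encode netrin-G ligands, Lrrc4c had higher values in all cervical libraries. It stood at 57.5, 54.1 and 57.5 CPM in cervical replicates 1, 2 and 3 and 43.8, 45.4 and 47.6 CPM in the thoracic replicates. The regions were well apart with little spread (56.4 ± 1.97 against 45.6 ± 1.90 CPM). It had the smallest edgeR p of the 42 genes but was not called by edgeR in either fit (log2 fold change 0.31 ± 0.07 SE, adjusted p from edgeR 0.118 and blocked 0.0502). DESeq2 called it (adjusted p 0.0181). Lrrc4c lies at chr2:96148514-97462011 (mm39). Ntng1, which encodes its ligand netrin-G1, stood at 37.4, 33.1 and 30.6 CPM (cervical) and 42.4, 41.5 and 48.8 CPM (thoracic) and was called by DESeq2 but in neither edgeR fit (log2 fold change -0.39 ± 0.10 SE, adjusted p from edgeR 0.159 and blocked 0.0579). Lrrc4 and Lrrc4b had log2 fold changes of 0.03 and 0.04, with overlap.

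The Lingo and Lrfn genes were not called in either edgeR fit or by DESeq2, and all overlapped between regions. Lingo1 stood at 173, 179.5 and 169.8 CPM (cervical) and 185, 199 and 177 CPM (thoracic), with overlap (log2 fold change -0.10 ± 0.06 SE, adjusted p from edgeR 0.756). Lingo2 stood at 14.7, 16.0 and 15.4 CPM (cervical) and 10.3, 15.9 and 15.0 CPM (thoracic), and thoracic replicate 1 was the low value. The 5 Lrfn genes, which encode synaptic adhesion proteins, some of which bind PSD-95, had log2 fold changes of -0.08, -0.15, 0.01, 0.03 and -0.01 for Lrfn1 to Lrfn5. The intervals of Lrfn1 (-0.21 to 0.05) and Lrfn4 (-0.09 to 0.16) were among the narrow ones, and those of Lrfn2 (-0.46 to 0.15) and Lrfn5 (-0.31 to 0.28) were wider.

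Thoracic libraries differed among themselves in the genes of long genomic span, with low values in replicate 1. All 12 genes that span over 300 kb were lower in it than the mean of the other thoracic libraries, with a median log2 difference of -0.33. Over all 532 tested genes of that span and a mean of at least 1 CPM the median was -0.14. The 21 genes of up to 50 kb had a median of -0.003. The long genes lowest in it were Tenm1 (-0.75), Lingo2 (-0.56), Nrxn3 (-0.53) and Adgrl3 (-0.52). The short genes Slitrk6 (-0.89), Slitrk2 (-0.54) and Slitrk3 (-0.40) were low there too. In thoracic replicate 3 all 12 long genes lay above the mean of the other thoracic libraries, with a median of 0.20, beside 0.15 over the 532 genes. For thoracic replicate 2 the median of the 12 was 0.17, with 3 of them below 0, beside 0.01 over the 532 genes. Each library was set against the mean of the others in its region, so low values in replicate 1 raise those of replicates 2 and 3. In the cervical libraries the medians of the 12 were -0.05, 0.06 and -0.03 for replicates 1, 2 and 3. The Nrxn3 values without thoracic replicate 1 are given above.

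**Figure D4:**
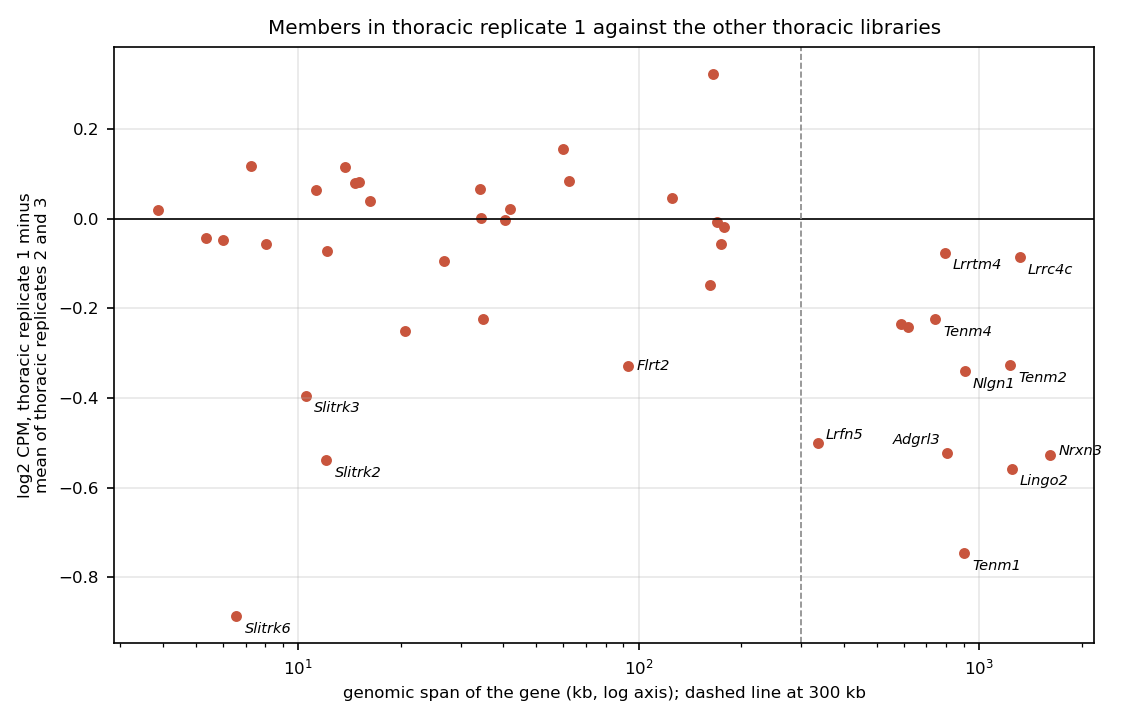
Each of the 42 genes by its genomic span in kb (log axis) and the log2 CPM of thoracic replicate 1 minus the mean of thoracic replicates 2 and 3. The 12 genes right of the dashed line at 300 kb all lie below 0, and Slitrk2, Slitrk3 and Slitrk6 are short genes that lie low as well.

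The ligands, receptors and scaffold proteins that bind these molecules gave no call in edgeR without the block. Of 67 listed partner genes 65 were tested, while Nxph2 and C1ql2 had too few counts. At an unadjusted p below 0.05 there were 16 (24.6%, beside 8.47% of all genes), of which 14 had higher thoracic values (21.5%, beside 5.19%). Limma-voom called none, and DESeq2 called 5 (7.69%, beside 1.86% of all genes), namely Cbln1, Homer2, Ntng1, Olfm3 and Tnfrsf19. The blocked edgeR test called 4 (6.15%, beside 1.97% of all genes), each with higher thoracic values. They were Cbln1, a secreted neurexin ligand (44.1 ± 5.92 against 60.5 ± 3.63 CPM, log2 fold change -0.46 ± 0.10 SE, adjusted p from edgeR 0.102 and blocked 0.0202), and Olfm3, a secreted olfactomedin (8.65 ± 0.174 against 14.0 ± 2.85 CPM, log2 fold change -0.69 ± 0.16 SE, adjusted p from edgeR 0.118 and blocked 0.0273). The others were Tnfrsf19, a receptor that can replace Ngfr beside Lingo1 (6.56 ± 0.974 against 10.1 ± 0.263 CPM, log2 fold change -0.63 ± 0.15 SE, adjusted p from edgeR 0.125 and blocked 0.0464), and Cadm3, an adhesion protein of axons (331 ± 29.6 against 398 ± 32.9 CPM, log2 fold change -0.27 ± 0.08 SE, adjusted p from edgeR 0.29 and blocked 0.0306). Cadm3 shares 361 exonic bases with Ackr1 on the same strand. The most abundant partner per kilobase was Cadm4, with a log2 fold change of 0.12. Nxph1, a neurexin ligand, stood at 157, 179 and 166 CPM (cervical) and 91.9, 156 and 142 CPM (thoracic), with thoracic replicate 1 far below the rest, as for Nrxn3 (adjusted p from edgeR 0.53, blocked 0.0508).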

How the data were processed

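The deposited table holds raw counts of each gene in 6 libraries, which the authors made with FastQC 0.11.9, STAR 2.7.5b and featureCounts 2.0.1 with build mm39, per the submitters' processing notes. The exonic gene length is another column of the deposited table. The sources used here name neither the annotation release nor the strand setting. For 12 of the 42 genes it is therefore not known how reads in exons shared with antisense partners were counted. Apart from Ctnna1 beside Lrrtm2, these partners had a mean of at most 173 counts. The labels' protocols name a stranded kit with rRNA depletion and PCR amplification, and no molecular identifiers.

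Genes were kept by edgeR's default filter with a minimum count of 10 (edgeR 4.0.16 in R 4.3.3), which left 21972. They were scaled by TMM and tested over the whole table with the quasi-likelihood test, region being the only term, and Benjamini-Hochberg adjustment at 0.05. Replicate numbers in the titles were taken to pair the regions, since deviations from the region means correlated for every same-numbered pair (0.163, 0.160 and 0.195). For pairs of unlike number the correlations ranged from -0.18 to 0.008. This choice rests on the same data as the blocked test. "Blocked" is the adjusted p of the same edgeR test with the replicate number as a block. The standard error is the fold change divided by the root of F. CPM is TMM-scaled. Within a region, chi-square per degree of freedom between libraries was 10.1 to 16.2, so no library was a copy of another. The test was checked on simulated counts. DESeq2 1.42.0 and limma 3.58.1 were alternatives.

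The 42 genes and the partner and marker lists were chosen with earlier results of these data known. Named with values were genes called in either fit, genes that hold a member within their span, and in each family the most abundant gene and the one with the smallest p. The partner genes named were those called in either fit and the most abundant. Other members with values, and Nxph1, Ntng1, Homer2 and Ngfr, were named after their values were seen. One listed marker, Drgx, was not matched by symbol.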

Additional observations from a re-analysis of the deposited data

How the results depend on the processing

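No member and no partner gene was called with median-of-ratios scaling, library totals, a mean CPM of at least 1 or limma-voom. With no filter on low counts the calls were 747 of all genes, 7 members (Clstn2, Flrt2, Lrrc4c, Lrrn3, Nrxn3, Slitrk2 and Tenm4) and 11 partner genes, with DESeq2 409, 5 and 5, and with the replicate block 432, 4 and 4. The cause of these shifts was not tested. Leaving out each library in turn gave 9 to 159 calls over all genes, 0 to 1 members and 0 to 1 partner genes. The member was Flrt2 without thoracic replicate 1, and the partner genes were Ngfr without cervical replicate 1 and Olfm3 without thoracic replicate 1. The fits without cervical replicate 2 or 3 gave 41 and 9 calls, and those without thoracic replicate 2 or 3 gave 37 and 45. With the replicate block and both libraries of 1 replicate number left out, an alternative added after seeing the data, the calls were 184 to 798 over all genes, 0 to 7 members and 0 to 9 partner genes. Without pair 1 the members were Tenm4, Clstn2, Lrrn3, Nrxn3, Flrt2, Slitrk5 and Slitrk2, without pair 2 there were none, and without pair 3 only Nrxn3. Of the refitted values of the 24 genes named by the rule, 283 kept their direction and side of the threshold, 17 passed it and 12 changed sign. The sign changes came when 1 library was left out, in genes near 0, whose log2 fold changes then ranged from -0.026 to 0.0497 for Nlgn2, from -0.15 to 0.026 for Lrrtm1, from -0.097 to 0.066 for Flrt3, from -0.0092 to 0.078 for Slitrk1, from -0.0090 to 0.10 for Lrrc4b and from -0.011 to 0.028 for Adgrl1. Lingo3, Slitrk6 and Lrrtm4 had the fewest counts of the members.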

Other observations

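Of the 42 genes, 9 lie wholly within the span of another gene, in each case on its opposite strand in the deposited mm39 coordinates. Lrrtm genes lie within alpha-catenin genes, which encode linkers of cadherins to actin: Lrrtm1 in Ctnna2, Lrrtm2 in Ctnna1 and Lrrtm3 in Ctnna3. The others are Flrt1 in Macrod1, Flrt3 in Macrod2, Lrrn3 in Immp2l, Lrrc4 in Snd1, Lrfn1 in Samd4b and Lrfn4 in Pcx. None of the 9 surrounding genes was called, with or without the replicate block, and their log2 fold changes lay between -0.25 and 0.23. The inner and surrounding genes had log2 fold changes of -0.03 beside 0.04 (Lrrtm1 and Ctnna2), 0.06 beside -0.15 (Lrrtm3 and Ctnna3), -0.09 beside 0.05 (Flrt1 and Macrod1) and -0.01 beside 0.23 (Flrt3 and Macrod2). They were 0.03 beside 0.00 for Lrrc4 and Snd1, -0.08 beside -0.06 for Lrfn1 and Samd4b, and 0.03 beside 0.19 for Lrfn4 and Pcx. For Lrrn3 and Immp2l they were -0.35 beside 0.04 (SE 0.09 and 0.31). Lrrn3 stood at 43.0 RPKM and Immp2l at 0.580 RPKM. For Lrrtm2 and Ctnna1 they were -0.13 beside -0.25 (SE 0.07 and 0.06), and Ctnna1 stood at 55.7 ± 1.47 against 66.4 ± 1.27 CPM (SD, n = 3; edgeR adjusted p = 0.159, blocked 0.0852). These 2 genes share 95 exonic bases on opposite strands, and without the strand setting it is not known how reads there were counted.

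Among the 42 genes, spread was wider among the thoracic libraries, where replicate 1 was low for most of the genes that varied most. The coefficient of variation of CPM exceeded 15% for 10 of the 42 genes among thoracic libraries and for 3 among cervical ones, with medians of 7.66% and 5.18%. Of the 10 genes, Nrxn3, Slitrk2, Slitrk3, Slitrk6, Lingo2, Tenm1, Adgrl3 and Lrfn5 were low in thoracic replicate 1. Against the mean of the other thoracic libraries their log2 differences there were -0.40 to -0.89, beside -0.23 for Clstn2 and 0.32 for Lrfn2. The difference in spread was not tested and was not compared over all genes. Summed motor neuron markers ranged more widely in cervical libraries (357 to 723 against 447 to 669 CPM). So did summed floor plate markers (412 to 857 against 797 to 1123 CPM). Summed progenitor markers ranged from 651 to 852 CPM in cervical and from 754 to 986 CPM in thoracic libraries, about alike relative to their level.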
